A study of Mus musculus with 67 samples.

Results

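Trophoblast giant cells of the mouse embryo labelled E4.75 (TGC, 3 libraries) were compared with trophectoderm labelled E4.5 (TE, 3 libraries), across all genes of the deposited expression table. These 6 libraries were chosen by their sample labels, out of 67 libraries in 23 groups of embryonic and extra-embryonic tissue. The comparison asks how the transcripts of giant cells differ from those of the trophectoderm. Both groups were wild type, and the series used a mouse line carrying an EGFP reporter driven by the Pdgfra promoter to separate lineages. Each library came from a small pool of about 10 to 100 lysed cells whose cDNA was amplified for 17 cycles by the Smart-seq2 method, per the labels' protocols. The embryos of the series were dissected from the decidua or grown in 3D culture, and the labels of these 2 groups do not say which. They also do not say whether the trophectoderm was mural or polar, or how giant cells were told from other trophoblast. Tissue and age change together between the groups, so their effects cannot be told apart. In pooled cells, fewer cells of a type and less RNA per cell cannot be told apart either. Extra-embryonic ectoderm labelled E4.75 (ExE, 3 wild-type libraries) and giant cells labelled E5.5 in vitro (4 wild-type libraries) are given beside some genes as further trophoblast values.

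Trophectoderm is the outer epithelium of the blastocyst, which pumps fluid into the cavity and attaches to the uterus. At implantation its cells away from the inner cell mass leave the mitotic cycle and copy their DNA without dividing, which makes them the primary trophoblast giant cells. Giant cells invade the decidua, open maternal blood spaces and secrete hormones of the placental prolactin family. Prl3d1 encodes placental lactogen I, an early hormone of that family that acts on the prolactin receptor, and Hand1 is a basic helix-loop-helix transcription factor needed for giant cells to form.

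The sequences just before the starts of the 5 placental prolactin genes with the largest differences are shown, to set them side by side, as 3 of the genes are close copies of each other. Each is the RefSeq window of 250 bases before the annotated start on mouse chromosome 13 (GRCm38.p6), at chr13:27093939-27094188 (plus strand) for Prl3d1, chr13:27121445-27121694 (plus) for Prl3d2, chr13:27156544-27156793 (plus) for Prl3d3, chr13:28142234-28142483 (plus) for Prl5a1 and chr13:27642494-27642743 (minus) for Prl7a1. Capitals mark matches to TGANTCA, a loose form of the AP-1 site (AP-1 being dimers of Fos and Jun proteins) that allows any middle base. They also mark AGATAA, letters bound by GATA factors. Both were searched on both strands, and no marked match overlaps another.
Prl3d1: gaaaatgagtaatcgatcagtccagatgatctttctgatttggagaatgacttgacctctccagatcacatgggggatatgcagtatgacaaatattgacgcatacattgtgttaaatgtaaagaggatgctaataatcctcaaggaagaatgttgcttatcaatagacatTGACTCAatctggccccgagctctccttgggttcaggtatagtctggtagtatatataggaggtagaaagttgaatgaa
Prl3d2: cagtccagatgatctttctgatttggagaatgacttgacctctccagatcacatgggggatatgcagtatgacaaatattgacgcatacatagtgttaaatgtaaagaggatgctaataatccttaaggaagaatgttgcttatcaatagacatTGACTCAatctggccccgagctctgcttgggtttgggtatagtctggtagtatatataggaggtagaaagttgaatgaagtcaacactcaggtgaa
Prl3d3: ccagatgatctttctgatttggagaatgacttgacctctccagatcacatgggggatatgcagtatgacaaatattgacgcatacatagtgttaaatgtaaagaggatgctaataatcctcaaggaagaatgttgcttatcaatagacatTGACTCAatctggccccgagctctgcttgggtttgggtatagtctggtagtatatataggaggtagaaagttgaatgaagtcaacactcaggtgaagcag
Prl5a1: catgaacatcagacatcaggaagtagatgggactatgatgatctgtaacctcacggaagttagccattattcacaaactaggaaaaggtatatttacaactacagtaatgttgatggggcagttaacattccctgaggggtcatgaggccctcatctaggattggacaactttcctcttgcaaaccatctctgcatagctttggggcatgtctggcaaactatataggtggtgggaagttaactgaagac
Prl7a1: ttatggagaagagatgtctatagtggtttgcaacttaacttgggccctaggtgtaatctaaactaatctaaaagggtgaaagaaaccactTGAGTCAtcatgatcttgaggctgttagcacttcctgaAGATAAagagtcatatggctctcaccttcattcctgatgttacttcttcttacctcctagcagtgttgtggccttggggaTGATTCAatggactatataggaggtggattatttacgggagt
The Prl3d1, Prl3d2 and Prl3d3 windows each hold 1 copy of TGACTCA, starting 79, 96 and 100 bases before the gene start. The Prl3d2 and Prl3d3 windows were 96.5% identical over their alignment. The Prl3d1 window was 85.4% identical to the first (228 of 267 aligned columns) and 83.0% to the second (225 of 271). Gaps count as unlike columns, and the annotated starts offset the windows. These percentages therefore understate the identity of the bases that the windows share. The Prl7a1 window holds 2 matches to the loose AP-1 form (TGAGTCA and TGATTCA) and 1 GATA match, and was 53.6% identical to that of Prl3d1. The Prl5a1 window holds neither. Nor do those of Cts7, Cts8 and Psg29, described below, while that of Nppb holds 1 GATA match and no AP-1 match. Over all genes tested that had a window, TGANTCA was found in 4.6% of 12003 windows, in 5.0% of the 1569 windows of genes higher in TGC and in 6.9% of the 248 windows of genes lower in TGC. AGATAA was found in 6.4% of all windows, in 5.9% of those of higher genes and in 8.5% of those of lower genes. These matches describe letters, not bound sites.

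Values are TPM, each transcript's share of the library corrected for transcript length and scaled to a common total. TPM keeps no read depth, so the counting error behind a value is unknown. An exact 0 may reflect a failed estimate and is given here as "listed at 0", with no fold against it. Genes listed at 1 TPM or more numbered 10222 to 10287 in the TGC libraries and 9030 to 9090 in the TE libraries. On the log2(TPM + 1) scale, libraries of 1 group correlated at 0.994 in TGC and at 0.991 to 0.992 in TE across genes, against 0.939 to 0.942 between the groups. The 45S ribosomal precursor Rn45s took 0.308 to 0.564% of TPM in the TGC libraries and 0.1 to 0.107% in the TE libraries.

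The giant cell label was checked against its markers. Prl3d1 was listed at 21954, 18586 and 22237 TPM in the TGC libraries, where it ranked 1 among the genes tested in each, and at 0 in all 3 TE libraries. Hand1 had 371, 373 and 360.5 TPM in TGC, against 1.78, 4.32 and 2.09 TPM in TE. Mmp9, a matrix metalloproteinase of invading giant cells, had 26.7, 25.9 and 25.7 TPM in TGC and was listed at 0 in all 3 TE libraries. Later giant cell genes were low, with Prl2c2 at 2.31, 2.21 and 1.53 TPM in TGC and the placental cathepsin Ctsq at 2.74, 2.29 and 2.83 TPM in TGC, both listed at 0 in TE, while Prl3b1 (placental lactogen II) was listed at 0 in all 6 libraries. The keratins Krt8 and Krt18 were abundant in both groups. Krt8 had 2928, 2936 and 2804 TPM in TGC and 3101, 3101 and 3495 TPM in TE. The stem trophoblast factor Cdx2 was low in both, at 2.70, 1.82 and 2.35 TPM in TGC and 1.54, 4.47 and 4.73 TPM in TE.

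Markers of other cell types named in this paragraph had 0 to 137 TPM in TGC and partly moved with the comparison. The epiblast and pluripotency list is given further below. A gene is called higher or lower in TGC under the limma test described below, which held for 12.8% and 1.94% of all genes tested. Of 15 primitive endoderm genes tested, 8 were higher and 1 lower in TGC (5 to 8 and 1 under the scalings described below), and their summed level was 280.3 to 314 TPM in TGC, against 54.7 to 64.8 TPM in TE and 1087 to 1142 TPM in ExE. The largest differences were in Srgn (a granule proteoglycan, 137, 114 and 131 TPM in TGC and 1.98, 3.78 and 2.99 TPM in TE) and Amn (a partner of the uptake receptor cubilin, 30.7, 34.1 and 30.4 TPM in TGC and 0.377, 0.843 and 0.493 TPM in TE). Of the defining markers, Pdgfra, Sox17 and Gata4 stayed near 0. Pdgfra had 0.981 to 1.38 TPM in TGC and 0 to 0.145 TPM in TE. Sox17 had 0.612 to 1.45 TPM in TGC and 0 to 0.355 TPM in TE, and Gata4 1.16 to 1.53 TPM in TGC and 0 to 0.153 TPM in TE. Gata6 went the other way, with 2.57, 2.65 and 3.60 TPM in TGC and 9.40, 11.4 and 8.56 TPM in TE. Of the epiblast markers, Nanog had 0 to 0.707 TPM in TGC and 0.560 to 1.16 TPM in TE, and Pou5f1 had 4.63 to 7.11 TPM in TGC and 1.47 to 2.89 TPM in TE. Parietal endoderm genes were higher for 7 of 12 tested and lower for 0 (3 to 4 higher under those scalings), summing to 200.4 to 202 TPM in TGC and 58.1 to 64.9 TPM in TE. The part of such cells in the results was not tested. Markers of uterine stroma (6 tested of 15), uterine epithelium (4 of 9) and blood (4 of 10) had no member called by limma (0 of 14 at an unadjusted p under 0.05), and each list summed to under 4 TPM in every library of both groups. Prl8a2, Col3a1, Pgr, Ptprc and Gzma, defining genes of decidua and leukocytes, were listed at 0 in all 6 libraries. The blood list summed to 1.21 to 1.66 TPM in TGC and 2.79 to 3.45 TPM in TE. Of the globin genes of red cells, Hbb-bs was listed at 0 in all 6, Hbb-b1 at 0 in TGC and at 0.818, 0.689 and 0.854 TPM in TE, and Hba-a2 had 0.935 to 1.34 TPM in TGC and 0.803 to 2.19 TPM in TE. Of 4 leukocyte genes tested, Laptm5 was higher, at 4.02, 5.78 and 3.90 TPM in TGC and 0.912, 1.29 and 0.203 TPM in TE, a call lost when TE replicate 3 was left out (adjusted p = 0.055), with 0.1 TPM added in place of 1 (0.064) and after removal of the length and GC trend described below (0.23).

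Differences were tested gene by gene with limma on log2(TPM + 1), with 1 estimate of spread per gene over all 67 libraries. A gene that varied within other groups can therefore miss the call although these 6 libraries do not overlap. Conversely, a gene near 0 in most groups takes a small spread from them, so its very small p-value does not measure the spread of these 6 libraries. Ctsq, at 1 TPM or more in 0 libraries outside TGC E4.75, had a standard error of 0.093. For Prl3d1, at 1 TPM or more in 33 such libraries, it was 0.85. Of 15567 genes tested, 1999 (12.8%) were higher and 302 (1.94%) lower in TGC, by a difference of at least 1 in log2 and with a Benjamini-Hochberg adjusted p below 0.05. Such genes are called higher or lower below, differences are log2 values with their standard errors, and the median difference of all genes was 0.218. The genes tested include many that were low in both groups. Among the 8127 genes of at least 1 TPM in all 6 libraries the median was 0.359, with 1312 called higher and 249 lower. Of all 1999 higher genes, 566 differed by at least 2 and 195 by at least 3. Of all 302 lower genes, 33 fell by at least 2 and 3 by at least 3. Large differences were thus more frequent on the higher side in the table as deposited. The 3 TGC libraries lay all above the 3 TE libraries in 1997 of the 1999 higher genes, beside 43.2% of all genes. They lay all below in 298 of the 302 lower genes, beside 13.1% of all genes. Non-overlap is thus nearly given for a called gene, and the genes of largest difference were named only where it held. Where it is given below it describes the values and adds no support to a call. A total of 115 higher genes were listed at 0 in all TE libraries, and 5 lower genes at 0 in all TGC libraries. With Rn45s dropped and columns rescaled to a common total, 1984 genes were higher and 290 lower, and 2259 of the 2301 calls were shared.

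**Figure D1:**
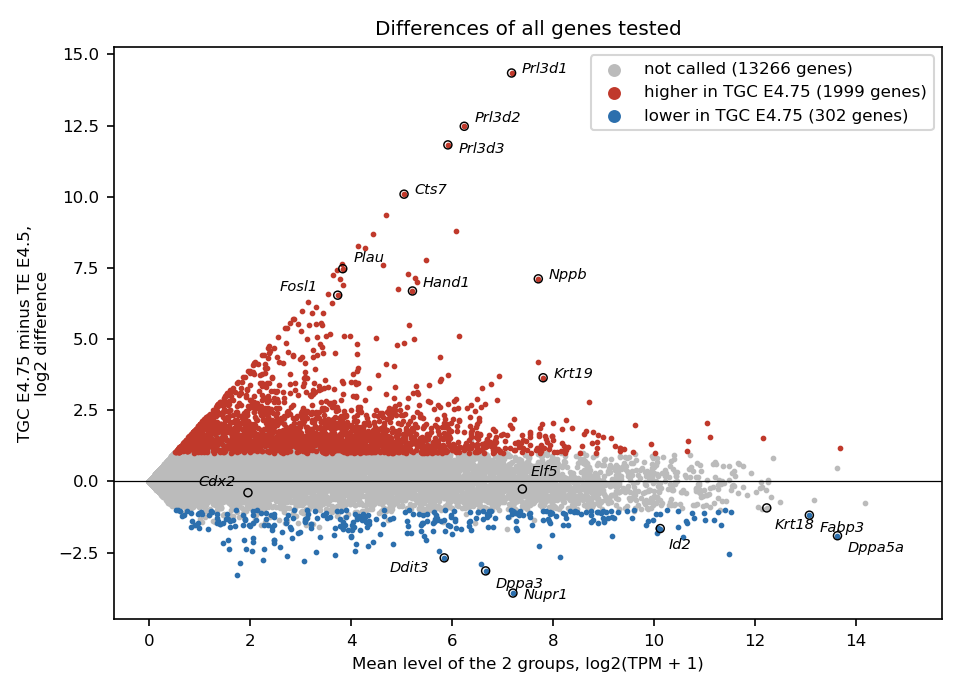
Difference between TGC E4.75 and TE E4.5 (log2, vertical axis) against the mean level of both groups (log2(TPM + 1), horizontal axis), 1 point per gene tested. The 1999 higher genes reach much further from 0 than the 302 lower ones, and for the 115 higher genes listed at 0 in TE the height depends on the 1 TPM added.

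The predominance of higher genes depended on the scaling. Higher genes made up 86.9% of all calls, but 52.9% after quantile normalization (989 higher, 882 lower) and 60.2% after median-ratio scaling (1283 higher, 849 lower), which brought the median difference of all genes to -0.01 and 0.05. The higher share also moved with gene structure. Among genes averaging at least 1 TPM, 12.1% were higher and 7.76% lower in the quintile with the shortest transcripts (54 to 1701 bases), against 23.8% and 3.08% in the next quintile. By GC content, 10.4% were higher in the lowest quintile and 32.1% in the highest. Removing each library's trend on length and GC across genes, an alternative chosen after seeing the data, left 819 higher and 815 lower genes. The trend was fitted on genes averaging at least 1 TPM over all libraries and subtracted from all genes, also from values of 0. It brought the median difference of all genes to -0.20, so it moved genes downward as a whole. What part length and GC have in the named differences was not tested. Counts under quantile normalization, median-ratio scaling and trend removal are called the 3 rescalings below and are given where they move a count by over 1.5 times. List counts below are to be read beside the 12.8% of all genes that were higher and the 1.94% lower. Those shares include many genes low in both groups. Among genes averaging at least 1 TPM, 13.4 to 26.2% were higher and 1.44 to 6.01% lower, by quintile of mean level. Lists near or within these shares do not stand out from all genes. As the lists were chosen with earlier results known, a larger share is a description too. Rescaled list counts are to be read beside the all-gene counts above, of 15567 genes for the 2 scalings and of 15171 for trend removal.

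**Figure D2:**
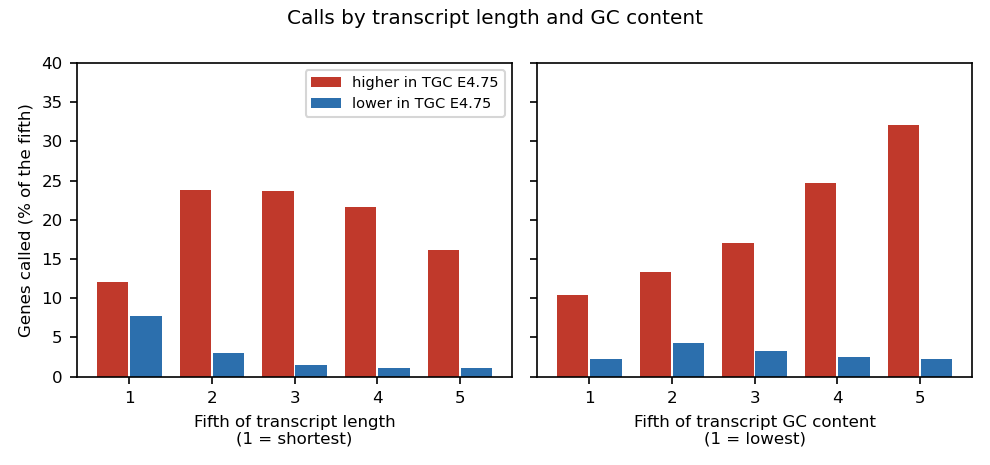
Percentage of genes called higher (red) and lower (blue) in TGC E4.75 against TE E4.5, in quintiles of longest annotated transcript length (left) and of its GC content (right), among genes averaging at least 1 TPM. Lower calls are most frequent among the shortest transcripts (7.76%), and higher calls among those richest in GC (32.1%).

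The placental prolactin family summed to 28696 to 34157 TPM in the TGC libraries, against 4.67 to 7.37 TPM in the TE libraries. Of 26 listed members, 16 passed the filter on low values and 14 of these were higher in TGC, with 0 lower, also under each of the 3 rescalings. A member listed at 0 in TE can pass the filter only through other groups, so the count is a description, and 2 of the 16 (Prl2c1 and Prl6a1) passed only with the E4.75 TGC libraries. The 10 others were at 0 in all 6 libraries, except Prl8a6 at 0.340 TPM in 1 TGC library. Prl3d2 had 5992, 5244 and 5892 TPM in TGC and Prl3d3 had 3843, 3128 and 3952 TPM in TGC, and both were listed at 0 in all TE libraries (adjusted p = 6.63e-25 and adjusted p = 4.97e-24). Prl3d1, whose levels are given above, was higher as well (adjusted p = 5.39e-20). These 3 lactogen genes are close copies and reads may be split between them, so their sum is the firmer value. Together they took 3.21, 2.72 and 3.24% of TPM in the TGC libraries and 0 in the TE libraries. In ExE of the same labelled age they took 0.211 to 0.239%, and in giant cells of E5.5 in vitro 13.2 to 15.1%.

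Other prolactin members followed at lower levels. Prl5a1 had 1464, 1195 and 1467 TPM in TGC and 3.23, 0.771 and 2.85 TPM in TE, a difference of 8.80 ± 0.51 (adjusted p = 1.88e-20). Prl7a1 had 472, 400.0 and 450.3 TPM in TGC and 2.97, 1.42 and 3.18 TPM in TE (7.01 ± 0.46, adjusted p = 6.51e-18). The groups did not overlap in either gene. Prl7d1, which encodes proliferin-related protein, an inhibitor of vessel growth, had 51.3, 49.0 and 54.2 TPM in TGC and was listed at 0 in TE (adjusted p = 1.09e-30). Prl2c5, of the proliferin group, had 71.5, 54.9 and 68.0 TPM in TGC and 0.711, 1.64 and 0.565 TPM in TE, and Prl2a1 had 19.4, 16.0 and 18.9 TPM in TGC and 0.224, 0.576 and 0.766 TPM in TE. Prl4a1, known for its action on uterine natural killer cells, had 10.7, 15.6 and 9.71 TPM in TGC and was listed at 0 in TE. The remaining called members, Prl8a1, Prl2c2, Prl6a1, Prl8a9 and Prl2c1, were listed at 0 in all TE libraries. Prl8a1 had 3.25 ± 1.82 TPM in TGC (SD, n = 3), and the other 4 had 0.860 to 2.79 TPM per TGC library. Prl2c3 (0.984, 0.545 and 0.501 TPM in TGC, 0 in TE) and Prl2c4 (0 in TGC, up to 0.267 TPM in TE) were not called, although Prl2c3 was higher with 0.1 TPM added in place of 1 (2.90, adjusted p = 4.5e-06), and members of the Prl2c group are close copies whose reads may be shared.

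The family is clustered on chromosome 13. Between the start of Prl3d1 (chr13:27094190-27100258, plus strand, GRCm38, GENCODE vM21) and the end of Prl5a1 (chr13:28142484-28151611) lay 12 tested genes, all prolactin members and all higher in TGC. The interval was set by 2 members, so this is a description. The Prl2c2, Prl2c3 and Prl2c5 genes lie outside it, between bases 12790816 and 13191923 of the same chromosome.

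**Figure D3:**
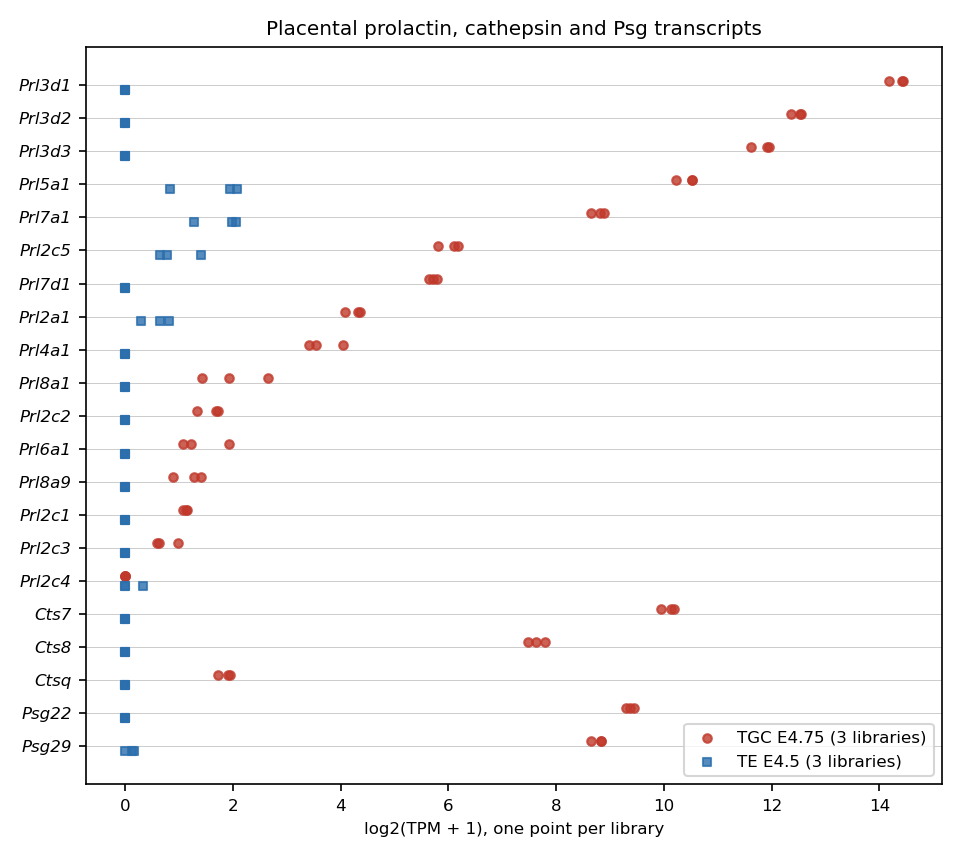
Levels of 21 prolactin, cathepsin and Psg genes, as log2(TPM + 1), with 1 red circle per TGC E4.75 library and 1 blue square per TE E4.5 library. In all genes but Prl2c4 the TGC libraries lie to the right of the TE libraries, and most TE libraries are at 0.

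Compared with ExE of the same labelled age, where 2.12% of genes were higher and 2.24% lower in TGC, the lactogens were also higher. Prl3d1 had 21954, 18586 and 22237 TPM in TGC, against 1613, 1461 and 1429 TPM in ExE (3.80 ± 0.85, adjusted p = 0.0013). Cts7 had 1163, 989 and 1126 TPM in TGC, against 7.88, 7.49 and 4.28 TPM in ExE (7.21 ± 0.30, adjusted p = 3.41e-26). Hand1 was not called between these tissues, at 371, 373 and 360.5 TPM in TGC and 282, 269 and 282 TPM in ExE (0.41 ± 0.33, adjusted p = 0.74). The ExE and TE contrasts share the TGC libraries. Prl3d1 in giant cells of E5.5 in vitro had 114777, 115076, 105772 and 101237 TPM, above every E4.75 library, and the culture label differs as well as the age.

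Placental cathepsins are lysosomal cysteine proteases found in rodent placenta, and Ctla2a and Ctla2b are inhibitors of such proteases. Of 10 listed, 5 were tested and all 5 were higher in TGC, also under each rescaling, while the other 5 were at 0 in all 6 libraries. Cts7, Cts8 and Ctsq were listed at 0 in TE and Ctsq passed the filter only through the E4.75 TGC libraries, so this count is a description too. Cts7 had 1163, 989 and 1126 TPM and Cts8 had 220.2, 178 and 196 TPM in TGC, and both were listed at 0 in TE (adjusted p = 3.85e-33 and adjusted p = 1.79e-34). The inhibitor Ctla2b had 21.5, 24.0 and 28.5 TPM in TGC and 0, 0.147 and 0.0942 TPM in TE (4.56 ± 0.36), and Ctla2a had 3.26, 3.26 and 3.01 TPM in TGC and 0.993, 0.409 and 0.442 TPM in TE (1.39 ± 0.18, adjusted p = 3.04e-08). Cts7, Cts8 and Ctsq lie together at chr13:61035024-61358197. Of 22 general lysosomal genes, 6 were higher and 0 lower, with a median difference of 0.54. Of these, the cathepsins Ctsb (129, 118 and 125 TPM in TGC, 28.1, 25.7 and 24.5 TPM in TE), Ctsd (286, 272 and 283 TPM in TGC, 66.0, 69.5 and 73.5 TPM in TE) and Ctsl (288, 294 and 304 TPM in TGC, 87.5, 91.6 and 102 TPM in TE) were higher without overlap (adjusted p = 6.40e-17, adjusted p = 1.59e-09 and adjusted p = 1.75e-13). Cd63, a membrane protein of late endosomes, was not called (2584, 2369 and 2478 TPM in TGC, 2188, 2391 and 2152 TPM in TE). Under the 3 rescalings 3 to 4 lysosomal genes were higher and 1 was lower.

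Pregnancy-specific glycoproteins are secreted immunoglobulin-like proteins of the placenta. Of 13 Psg genes listed, 4 were tested, of which 3 were higher and 0 lower in TGC, and the 9 others had at most 0.863 TPM in any of the 6 libraries. Psg22 (chr7:18718090-18727248) had 697, 625 and 664 TPM in TGC and was listed at 0 in all TE libraries (adjusted p = 2.06e-35). Psg29 (chr7:17203477-17215760) had 456, 399 and 453 TPM in TGC and 0.118, 0.0869 and 0 TPM in TE (8.67 ± 0.26, adjusted p = 4.61e-33). Psg19 had 7.98, 6.62 and 9.70 TPM in TGC and was listed at 0 in TE, and Psg25 was not called (2.18, 0 and 0 TPM in TGC, 0 in TE, adjusted p = 0.23). Ceacam15, of the related carcinoembryonic antigen family, had 182, 148 and 183 TPM in TGC and was listed at 0 in TE (adjusted p = 2.55e-32). The TGC and TE libraries did not overlap in any of the 4 called genes. In ExE, Psg22 had 26.2, 32.4 and 29.6 TPM and Psg29 30.0, 29.8 and 28.4 TPM.

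Of 16 regulators of giant cell fate tested, 8 were higher and 1 lower in TGC, with a median difference of 1.53, beside 0.218 for all genes. Under the 3 rescalings 7 to 8 were higher and 2 lower, with medians of 0.73 to 1.18. The Hand1 difference was 6.69 ± 0.33 (adjusted p = 2.94e-23), with TGC libraries of 360 to 373 TPM and TE libraries of 1.78 to 4.32 TPM, and it was 6.70 with Rn45s dropped. Fosl1, a Fos-family subunit of AP-1, had 141, 118 and 123 TPM in TGC and 0.344, 0.491 and 0.296 TPM in TE (6.54 ± 0.31, adjusted p = 5.56e-24). Snai1, a zinc-finger repressor of epithelial genes, had 68.6, 81.3 and 67.4 TPM in TGC and 0.234, 0.202 and 0.180 TPM in TE (5.92 ± 0.45, adjusted p = 1.28e-15). All TGC libraries lay above all TE libraries in these genes. Junb, a Jun-family subunit of AP-1, had 109, 115 and 95.8 TPM in TGC and 4.86, 4.36 and 6.37 TPM in TE, and Tfap2c, the trophoblast AP-2 factor, had 216, 195 and 212 TPM in TGC and 30.9, 35.2 and 29.2 TPM in TE (4.13 ± 0.33 and 2.67 ± 0.53). Gata3, a trophoblast GATA factor, was not called (179.6, 138 and 159 TPM in TGC, 85.9, 93.9 and 85.6 TPM in TE, adjusted p = 0.52), nor was Ets2 (22.2, 16.2 and 21.4 TPM in TGC, 9.78, 9.41 and 6.78 TPM in TE, adjusted p = 0.051), though Ets2 was higher with array weights and with the 6 libraries alone, without and with a replicate block (adjusted p = 3.6e-07, 0.0064 and 0.034). Cebpb, a leucine-zipper factor, was lower (4.83, 8.21 and 10.5 TPM in TGC, 21.7, 19.6 and 19.6 TPM in TE, adjusted p = 0.043). That call was lost when any library but TGC replicate 3 was left out (adjusted p up to 0.22), with 0.1 TPM added (0.34) and without the filter on low values (0.064).

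Proteases, clotting regulators and vascular proteins of invading trophoblast were higher for 10 of 22 tested and lower for 0, with a median of 0.33 (9 to 10 higher and 0 to 1 lower under the 3 rescalings). Plau, the urokinase plasminogen activator, had 201, 176 and 189 TPM in TGC and 0, 0.213 and 0 TPM in TE (7.47 ± 0.32, adjusted p = 1.55e-25). Pecam1, an adhesion molecule of endothelium and giant cells, had 119.8, 103 and 115 TPM in TGC and 0, 0 and 0.618 TPM in TE (6.59 ± 0.47). Procr, the endothelial receptor of protein C, had 66.8, 55.1 and 70.6 TPM in TGC and 1.40, 0 and 0.140 TPM in TE (5.53 ± 0.48). In all 3 the TE libraries were at or near 0. Thbd, thrombomodulin, which brakes clotting, had 14.9, 8.34 and 14.1 TPM in TGC and 0, 0.0557 and 0 TPM in TE (3.68 ± 0.25). Not called were the urokinase receptor Plaur (62.8, 64.0 and 58.4 TPM in TGC, 46.9, 53.1 and 50.6 TPM in TE) and the protease inhibitor Serpine2 (74.2, 67.5 and 74.5 TPM in TGC, 49.2, 56.9 and 64.0 TPM in TE). Mmp1a, an interstitial collagenase, had 332, 267 and 327 TPM in TGC and was listed at 0 in all TE libraries (adjusted p = 6.42e-42), against 7.87, 7.08 and 8.20 TPM in ExE.

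Secreted and surface signals included some of the largest differences of the whole table. Nppb, which encodes the natriuretic peptide BNP, had 2347, 2432 and 2579 TPM in TGC and 14.9, 19.5 and 15.9 TPM in TE (7.12 ± 0.47, adjusted p = 7.83e-18). The related Nppc had 15.2, 15.4 and 15.1 TPM in TGC and 1.49, 0.255 and 0 TPM in TE (3.47 ± 0.39). Il24, a cytokine of the interleukin-10 family, had 352, 309 and 325 TPM in TGC and 0.371, 0 and 0 TPM in TE (8.21 ± 0.23), and Il23a, the p19 chain of interleukin-23, had 454, 405 and 431 TPM in TGC and 0.971, 1.92 and 2.65 TPM in TE (7.28 ± 0.60). No TE library overlapped a TGC library in these 4 genes. Plac8, a cysteine-rich protein named for its placental expression, had 634, 616 and 594 TPM in TGC and 2.22, 0.372 and 4.05 TPM in TE (7.77 ± 0.42), and Lbhd2 had 332, 349.8 and 313 TPM in TGC and 0, 0.942 and 1.59 TPM in TE (7.60 ± 0.45). Of 21 listed signals to the mother and immune genes, 4 were higher and 1 lower (median 0.49). The lower one was the cytokine Il6, at 2.63, 2.29 and 1.10 TPM in TGC and 5.80, 11.2 and 6.35 TPM in TE (-1.53 ± 0.18, adjusted p = 2.07e-09). The class I chain H2-D1 (149, 149.8 and 151 TPM in TGC, 102, 104 and 113 TPM in TE) and B2m (37.2, 30.9 and 38.9 TPM in TGC, 55.0, 55.7 and 53.4 TPM in TE) were not called. In giant cells of E5.5 in vitro, Nppb had 848, 812, 814 and 730.5 TPM and Plac8 4455, 4154, 4075 and 4165 TPM, so the first lay below every E4.75 TGC library and the second above.

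Trophectoderm genes were split, with 6 of 19 higher, 5 lower and a median of -0.16. Krt19, a type I keratin, had 817, 792 and 753 TPM in TGC and 60.4, 64.9 and 61.3 TPM in TE (3.64 ± 0.53, adjusted p = 2.30e-07). Krt7 had 486, 567 and 507 TPM in TGC and 127, 117 and 125 TPM in TE (2.07 ± 0.53), a call lost with 0.1 TPM added in place of 1 (adjusted p = 0.11). Krt18, the partner of Krt8, was not called at 3509.8, 3580.2 and 3336 TPM in TGC and 6392, 6433 and 7075 TPM in TE (-0.93 ± 0.15), but was lower under median-ratio scaling (-1.37) and trend removal (-1.37). Id2, an inhibitor of basic helix-loop-helix factors, had 656, 567 and 656 TPM in TGC and 1918, 1932 and 2072 TPM in TE (-1.66 ± 0.22, adjusted p = 1.73e-08). Fabp3, a fatty acid binding protein, had 5713, 5850.0 and 5567 TPM in TGC and 13588, 12907 and 12524 TPM in TE (-1.19 ± 0.16, adjusted p = 7.43e-08). Tspan8, a tetraspanin, had 1020.4, 877 and 1068 TPM in TGC and 2481, 2701 and 2522 TPM in TE, but its call (adjusted p = 0.043) was lost when any of the 6 libraries was left out (adjusted p 0.078 to 0.12), with 0.1 TPM added (0.42), without the filter (0.068) and under quantile normalization (0.097). Under the 3 rescalings the list had 4 to 5 higher and 3 to 8 lower members.

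Of 16 genes of trophoblast stem cells and extra-embryonic ectoderm tested, 4 were higher and 0 lower in TGC (median 0.38), against 2 to 3 higher and 1 to 3 lower under the 3 rescalings. Elf5, a stem cell factor of trophoblast, was not called, at 159, 141 and 156 TPM in TGC and 186, 178 and 185 TPM in TE (-0.27 ± 0.24). Spry4, an inhibitor of FGF signalling, had 3.35, 3.49 and 3.37 TPM in TGC and 0, 0.0516 and 0 TPM in TE (2.11 ± 0.34). Bmp4 had 35.9, 38.6 and 37.6 TPM in TGC and 9.07, 9.91 and 14.0 TPM in TE, and ExE had 65.9, 65.3 and 72.4 TPM. The Bmp4 call (adjusted p = 0.037) was lost when any library but TE replicate 3 was left out (adjusted p up to 0.11), under each rescaling (0.13 to 0.23), with 0.1 TPM added (0.30) and without the filter on low values (0.063). Among ectoplacental genes, 3 of 8 tested were higher, and 1 to 2 under the rescalings. The growth factor receptor Egfr had 9.56, 8.80 and 10.6 TPM in TGC and 1.03, 0.786 and 0.615 TPM in TE (2.56 ± 0.35), and Ascl2, a factor of the ectoplacental cone, had 69.6, 81.2 and 71.4 TPM in TGC and 15.1, 14.6 and 18.7 TPM in TE (2.14 ± 0.60). The Ascl2 call was lost with 0.1 TPM added (adjusted p = 0.12) under quantile normalization (0.08) and after trend removal (0.076). Tpbpa, which defines spongiotrophoblast, was listed at 0 in all 6 libraries.

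**Figure D4:**
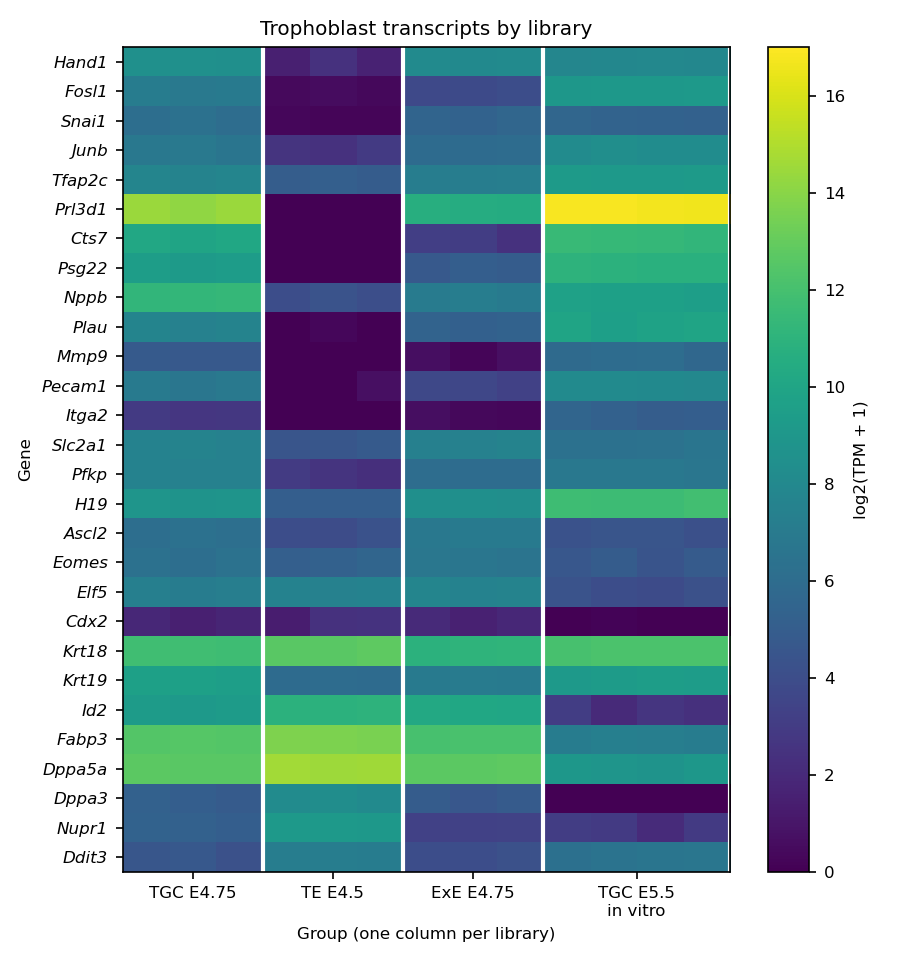
Level of 28 genes as log2(TPM + 1) by colour, 1 column per library, in TGC E4.75, TE E4.5, ExE E4.75 and TGC E5.5 in vitro. Prl3d1, Cts7 and Psg22 are dark in TE and bright in TGC, ExE lies between them, and Dppa5a, Fabp3 and Id2 are brighter in TE than in TGC.

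In the table as deposited, the genes that were lower in TGC were fewer and differed less. Under the 3 rescalings the counts were closer, with 815 to 882 lower and 819 to 1283 higher. Nupr1, a stress-induced nuclear protein, was the furthest below, with 39.1, 38.5 and 33.1 TPM in TGC and 593, 584 and 541 TPM in TE (-3.92 ± 0.47, adjusted p = 1.63e-09). Dppa3, a maternal and germ-line protein known as Stella, had 37.6, 33.6 and 28.3 TPM in TGC and 299, 315 and 285 TPM in TE (-3.14 ± 0.46). The class I gene H2-Bl had 0.231, 0 and 0 TPM in TGC and 10.5, 9.12 and 8.64 TPM in TE (-3.28 ± 0.41). TGC and TE libraries did not overlap in any of them. Dppa5a, an abundant RNA-binding protein of early embryonic cells, had 6645, 6429 and 6545 TPM in TGC and 25963, 23856 and 23921 TPM in TE (-1.91 ± 0.09, adjusted p = 9.02e-24), and ranked 1 to 2 in the TE libraries and 7 to 8 in TGC. Slc15a2, a peptide transporter, had 31.8, 31.1 and 39.5 TPM in TGC and 267, 271 and 238 TPM in TE (-2.89 ± 0.32). Crxos had 1196, 1119 and 1183 TPM in TGC and 7232, 7572 and 5994 TPM in TE (-2.56 ± 0.55), a call lost with 0.1 TPM added (adjusted p = 0.17). Fbp2, a fructose bisphosphatase, had 109, 118 and 108 TPM in TGC and 693, 689.8 and 741 TPM in TE (-2.65 ± 0.51), likewise lost (adjusted p = 0.1). The other most reduced genes were the calcium sensor Guca1a, the small heat shock protein Hspb2, the adaptor Blnk, Ubap1l, the sodium pump regulator Fxyd6, the cardiolipin synthase Crls1, the histone H2ac10 and Gata6os, with differences of -2.45 to -2.86. Gata6os lies beside Gata6, which was also lower (2.57, 2.65 and 3.60 TPM in TGC, 9.40, 11.4 and 8.56 TPM in TE), a call lost with 0.1 TPM added (adjusted p = 0.11). Whether strand was used in counting is not known, so reads of the pair cannot be told apart.

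Cell cycle genes held calls in both directions. Of 28 genes of G1/S and endocycle control, 9 were higher and 0 lower (median 0.59), and 7 to 8 were higher under the 3 rescalings, with 0 to 1 lower. Cdkn1c (p57), an inhibitor of cyclin-dependent kinases known for the switch of giant cells to endoreduplication, had 53.2, 51.9 and 52.4 TPM in TGC and 3.75, 3.64 and 3.98 TPM in TE (3.48 ± 0.49, adjusted p = 9.54e-08). Skp2, of the ubiquitin ligase that clears such inhibitors, had 35.1, 26.6 and 33.6 TPM in TGC and 4.63, 4.23 and 3.99 TPM in TE (2.62 ± 0.35), and Fzr1, an activator of the anaphase-promoting complex, had 65.2, 64.1 and 64.8 TPM in TGC and 10.1, 10.8 and 16.3 TPM in TE (2.32 ± 0.34). Each of the 3 had all TGC libraries above all TE libraries. Geminin (Gmnn), which blocks re-licensing of origins, was not called (265, 246 and 239 TPM in TGC, 330.0, 357 and 318 TPM in TE). DNA replication genes were higher for 5 and lower for 2 of 30 (16.7% and 6.67%, beside 12.8% and 1.94% of all genes, median 0.39). Under the 3 rescalings 0 were higher and 2 to 6 lower. Tyms, thymidylate synthase, was lower (68.1, 67.7 and 70.1 TPM in TGC, 154, 152 and 151 TPM in TE, -1.14 ± 0.11), while Rrm1, of ribonucleotide reductase, had 69.8, 62.3 and 67.4 TPM in TGC and 24.7, 32.2 and 30.1 TPM in TE. The Rrm1 difference of 1.18 dropped below 1 under each rescaling. Mitotic genes were higher for 3 and lower for 1 of 26 (11.5% and 3.85%, near the shares of all genes, median 0.37), against 0 to 1 in each direction under the rescalings. Plk1, a mitotic kinase, had 79.3, 75.1 and 82.2 TPM in TGC and 25.9, 25.5 and 21.7 TPM in TE (1.66 ± 0.17, and 0.94 after trend removal), and cyclin B2 (Ccnb2) had 176, 154 and 173 TPM in TGC and 329, 336 and 399 TPM in TE (-1.07 ± 0.15, and -0.96 after quantile normalization and -0.98 without TE replicate 3). Pcna was not called (238, 215 and 225 TPM in TGC, 263, 273 and 296 TPM in TE).

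Of 23 integrin and basement membrane genes, 12 were higher and 0 lower (median 1.05), against 5 to 8 higher and 0 to 2 lower under the 3 rescalings. Itgb3 had 17.4, 17.8 and 17.2 TPM in TGC and 1.42, 1.02 and 0.890 TPM in TE (3.14 ± 0.23), and Itga1, a collagen receptor chain, had 10.7, 8.60 and 9.40 TPM in TGC and 0.260, 0.138 and 0.714 TPM in TE (2.96 ± 0.40). Itga2, another collagen receptor chain, had 6.50, 5.55 and 5.84 TPM in TGC and was listed at 0 in all TE libraries (adjusted p = 6.00e-23). Of 23 genes of epithelial junctions, 4 were higher and 0 lower with a median of -0.00116, against 2 to 4 higher and 1 to 3 lower under the rescalings. The desmosome proteins plakoglobin (Jup, 29.3, 33.2 and 29.7 TPM in TGC and 2.11, 1.34 and 2.28 TPM in TE) and Pkp2 (70.6, 64.1 and 64.6 TPM in TGC and 12.4, 13.5 and 18.7 TPM in TE) differed by 3.46 ± 0.37 and 2.11 ± 0.53, while the adhesion molecule Epcam (367, 384 and 389.6 TPM in TGC, 501, 493 and 553 TPM in TE) and the claudin Cldn3 (343, 371 and 345 TPM in TGC, 242, 246 and 229 TPM in TE) were not called. Of 30 actin genes, 8 were higher and 1 lower (median 0.64), against 4 to 6 higher and 4 lower. Limk1, a kinase of cofilin, had 7.62, 10.4 and 7.75 TPM in TGC and 0, 0.0621 and 0.221 TPM in TE (3.13 ± 0.37), and the tropomyosin Tpm2 had 129, 140.3 and 126 TPM in TGC and 17.9, 20.8 and 20.6 TPM in TE (2.68 ± 0.41). The light chain Myl6 was lower (1970.2, 1902 and 1831 TPM in TGC, 3954, 3776 and 3759 TPM in TE, -1.01 ± 0.10), a call at the edge of the minimum difference that was lost without TE replicate 1 or TGC replicate 3 and under quantile normalization (-0.93). Of 9 genes of blastocoel transport, 3 were higher (1 to 2 under the rescalings, with 0 to 1 lower), led by the water channel Aqp8 (27.0, 23.4 and 24.9 TPM in TGC, 2.19, 1.16 and 1.44 TPM in TE, 3.34 ± 0.30).

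Glucose genes were higher for 10 of 19 tested and lower for 0, with a median of 1.12, and 6 to 9 were higher under the 3 rescalings. Pfkp, the platelet form of phosphofructokinase, had 184, 174 and 173 TPM in TGC and 3.94 to 6.84 TPM in TE (4.87 ± 0.33, adjusted p = 1.79e-17). Slc16a3, a lactate exporter, had 21.2, 22.1 and 28.5 TPM in TGC and 0.0520, 0.107 and 0.0754 TPM in TE (4.52 ± 0.49), and the glucose transporter Slc2a1 had 182, 191 and 179.7 TPM in TGC and 21.2, 22.5 and 27.7 TPM in TE (2.91 ± 0.21). All TGC libraries lay above all TE libraries in these genes. Slc2a1 was at 169.7, 176 and 191 TPM in ExE and was not called against it (0.04 ± 0.21). The transporter Slc2a3 was not called against TE (46.4, 39.2 and 40.6 TPM in TGC, 40.2, 43.8 and 42.4 TPM in TE). Oxidative phosphorylation genes were higher for 1 and lower for 2 of 20 (median -0.29), summing to 18439 to 19032 TPM in TGC and 25537 to 26301 TPM in TE. Cox4i1, of cytochrome oxidase, had 2061, 2073 and 1961 TPM in TGC and 4501, 4259.8 and 4059 TPM in TE (-1.07 ± 0.13), and cytochrome c (Cycs) had 338, 306 and 334 TPM in TGC and 727, 673 and 677 TPM in TE (-1.08 ± 0.14). Both fell under the minimum difference after quantile normalization (-0.94 and -0.91), and 0 to 7 of the list were lower under the 3 rescalings. Hypoxia genes were higher for 4 and lower for 2 of 15. Hif1a, the oxygen-regulated factor, had 37.5, 30.5 and 37.1 TPM in TGC and 7.06, 6.73 and 8.19 TPM in TE (2.11 ± 0.24), and P4ha1, a collagen hydroxylase, had 14.6, 14.6 and 14.1 TPM in TGC and 1.17, 0.0755 and 0.570 TPM in TE (3.33 ± 0.35). Bnip3, a mitochondrial target of that pathway, was lower (101, 84.9 and 94.3 TPM in TGC, 234, 266 and 242 TPM in TE, -1.39 ± 0.19).

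Steroid synthesis genes were higher for 5 of 12 tested and lower for 0 (median 0.67), with 3 to 4 higher under the rescalings. Hsd17b2, which inactivates oestradiol and testosterone, had 37.7, 28.4 and 33.3 TPM in TGC and 3.93, 2.26 and 1.62 TPM in TE (3.28 ± 0.54), and the lipoprotein receptor Scarb1 had 33.0, 27.6 and 28.6 TPM in TGC and 2.88, 3.71 and 4.01 TPM in TE (2.77 ± 0.51). Cyp11a1, which makes the first steroid from cholesterol and is a giant cell enzyme later in pregnancy, was not called at 0.313, 0.734 and 1.74 TPM in TGC and 0, 0.310 and 0 TPM in TE. Cholesterol synthesis genes were higher for 3 of 20 (15%, beside 12.8% of all genes) and lower for 0, but 1 to 2 were higher and 2 to 3 lower under the rescalings. Dhcr7, its last enzyme, had 20.5, 20.3 and 22.3 TPM in TGC and 1.91, 1.35 and 1.88 TPM in TE (3.03 ± 0.33). Of 23 nutrient transport genes, 8 were higher and 2 lower, against 5 to 7 higher and 2 to 3 lower under the rescalings. Cubn, the uptake receptor cubilin, had 4.08, 3.49 and 4.53 TPM in TGC and 0.154, 0.273 and 0 TPM in TE (2.14 ± 0.32), and the folate receptor Folr1 was lower, at 283, 278 and 289.6 TPM in TGC and 665, 646 and 639 TPM in TE (-1.19 ± 0.32). Cubn and Amn are also genes of endoderm, whose markers are given above.

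Stress genes were higher for 11 and lower for 1 of 22 (median 0.86), and 4 to 8 were higher and 2 to 3 lower under the 3 rescalings. Pdia4, a chaperone of the endoplasmic reticulum, had 139, 112 and 129 TPM in TGC and 26.1, 23.1 and 24.6 TPM in TE (2.32 ± 0.21). Jun had 9.46, 8.94 and 9.33 TPM in TGC and 2.54, 1.30 and 2.01 TPM in TE (1.82 ± 0.44, and 0.95 after trend removal). Ddit3 (CHOP), a factor induced by unfolded protein, was lower, at 22.6, 24.5 and 17.9 TPM in TGC and 147, 147 and 138 TPM in TE (-2.69 ± 0.56, adjusted p = 2.00e-04). This chaperone and this stress factor thus differed in opposite directions. Hsp90aa1 lay at the minimum difference and was not called (1783, 1798 and 1764 TPM in TGC, 3425, 3676 and 3589 TPM in TE, -0.999), but was lower under median-ratio scaling (-1.44), trend removal (-1.48), array weights, and without TE replicate 1 (-1.03) or TGC replicate 2 (-1.01). Targets of p53 were higher for 6 of 17 and lower for 0 (median 0.75), against 1 to 2 higher and 0 to 1 lower under the rescalings. Sesn2, a stress-induced regulator of growth, had 25.7, 36.7 and 35.6 TPM in TGC and 3.81, 2.92 and 4.70 TPM in TE (2.81 ± 0.45), while Bax (631, 620.0 and 618 TPM in TGC, 605, 631 and 607 TPM in TE) and Cdkn1a (131, 141 and 136 TPM in TGC, 86.9, 88.8 and 88.4 TPM in TE) were not called.

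In FGF and ERK signalling 7 of 21 were higher and 0 lower (median 0.76), against 5 to 6 higher and 1 to 2 lower under the rescalings. Etv5, an ETS factor induced by FGF, had 11.2, 8.37 and 9.77 TPM in TGC and 0.394, 0.339 and 0.219 TPM in TE (3.03 ± 0.40), whereas Dusp6, a phosphatase of ERK, was not called (96.5, 92.4 and 96.9 TPM in TGC, 66.8, 76.4 and 79.0 TPM in TE). In BMP and TGF-beta signalling 5 of 22 were higher and 2 lower, and 0 to 1 were higher under the rescalings with 2 lower each time. The lower ones were Id2 and Id3, both targets of BMP, and Id3 had 27.7, 34.4 and 26.6 TPM in TGC and 65.9, 55.5 and 78.2 TPM in TE (-1.14 ± 0.27). In the Hippo pathway 4 of 20 were higher and 0 lower (median 0.43), against 1 to 2 higher and 0 to 1 lower. Amot, which holds YAP at junctions, had 6.55, 4.86 and 6.81 TPM in TGC and 1.55, 1.36 and 2.17 TPM in TE (1.39 ± 0.30, and 0.86 after quantile normalization), and the YAP target Ccn1 was not called (48.6, 41.5 and 46.2 TPM in TGC, 50.3, 44.1 and 57.0 TPM in TE).

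The series also profiled H3K27me3 and H3K4me3, which are set by Polycomb and by H3K4 methyltransferases. Of 29 Polycomb genes tested, 6 were higher and 1 lower (median 0.57), but 1 to 4 were higher and 4 to 5 lower under the 3 rescalings. Kdm2b, which brings a Polycomb complex to CpG islands, had 19.7, 20.3 and 21.7 TPM in TGC and 6.79, 4.87 and 5.68 TPM in TE (1.68 ± 0.33, and 0.96 after quantile normalization). The histone chaperone Rbbp7 was not called (852, 752 and 818 TPM in TGC, 544, 615 and 560.1 TPM in TE). Histone H3 lysine methyltransferase and demethylase genes were higher for 4 of 17 and lower for 0, against 0 to 2 higher and 1 lower. Kdm6b, an H3K27 demethylase, had 26.5, 24.6 and 23.4 TPM in TGC and 7.33, 7.14 and 9.23 TPM in TE (1.54 ± 0.33), and the call was lost under quantile normalization (a difference of 0.83) and trend removal (0.63). Of 10 DNA methylation genes 3 were higher and 0 lower (0 to 2 in each direction under the rescalings), and the methyltransferase Dnmt3a had 17.3, 16.5 and 17.3 TPM in TGC and 6.35, 5.60 and 5.48 TPM in TE (1.41 ± 0.18, and 0.71 after quantile normalization and 0.89 after trend removal). Imprinted genes were higher for 6 of 23 tested and lower for 0 (median 0.48), and 4 to 6 were higher, with 1 lower. H19, an imprinted growth-restraining RNA, had 458, 425 and 439 TPM in TGC and 33.4, 32.3 and 33.0 TPM in TE (3.70 ± 0.32, adjusted p = 1.46e-13). Its neighbour Igf2, a placental growth factor, had 48.7, 52.2 and 49.6 TPM in TGC and 3.86, 7.11 and 8.12 TPM in TE (2.85 ± 0.34). In both, every TGC library lay above every TE library.

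Of 16 epiblast and pluripotency genes tested, 4 were higher and 2 lower (median 0.41), and 1 to 3 were higher under the rescalings. The summed level was 7080 to 7311 TPM in TGC and 24295 to 26433 TPM in TE, most of it Dppa5a. The other lower gene was Klf4, at 1.76, 0.555 and 1.06 TPM in TGC and 6.70, 7.45 and 7.49 TPM in TE (-1.99 ± 0.37). Tdgf1, a co-receptor of Nodal, had 17.0, 16.1 and 18.0 TPM in TGC and 5.26, 5.49 and 4.67 TPM in TE (1.56 ± 0.21, and 0.85 after quantile normalization), beside 50.6, 47.6 and 53.5 TPM in ExE, and Zfp42 was not called (231, 216 and 237 TPM in TGC, 236, 222 and 252 TPM in TE).

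**Figure D5:**
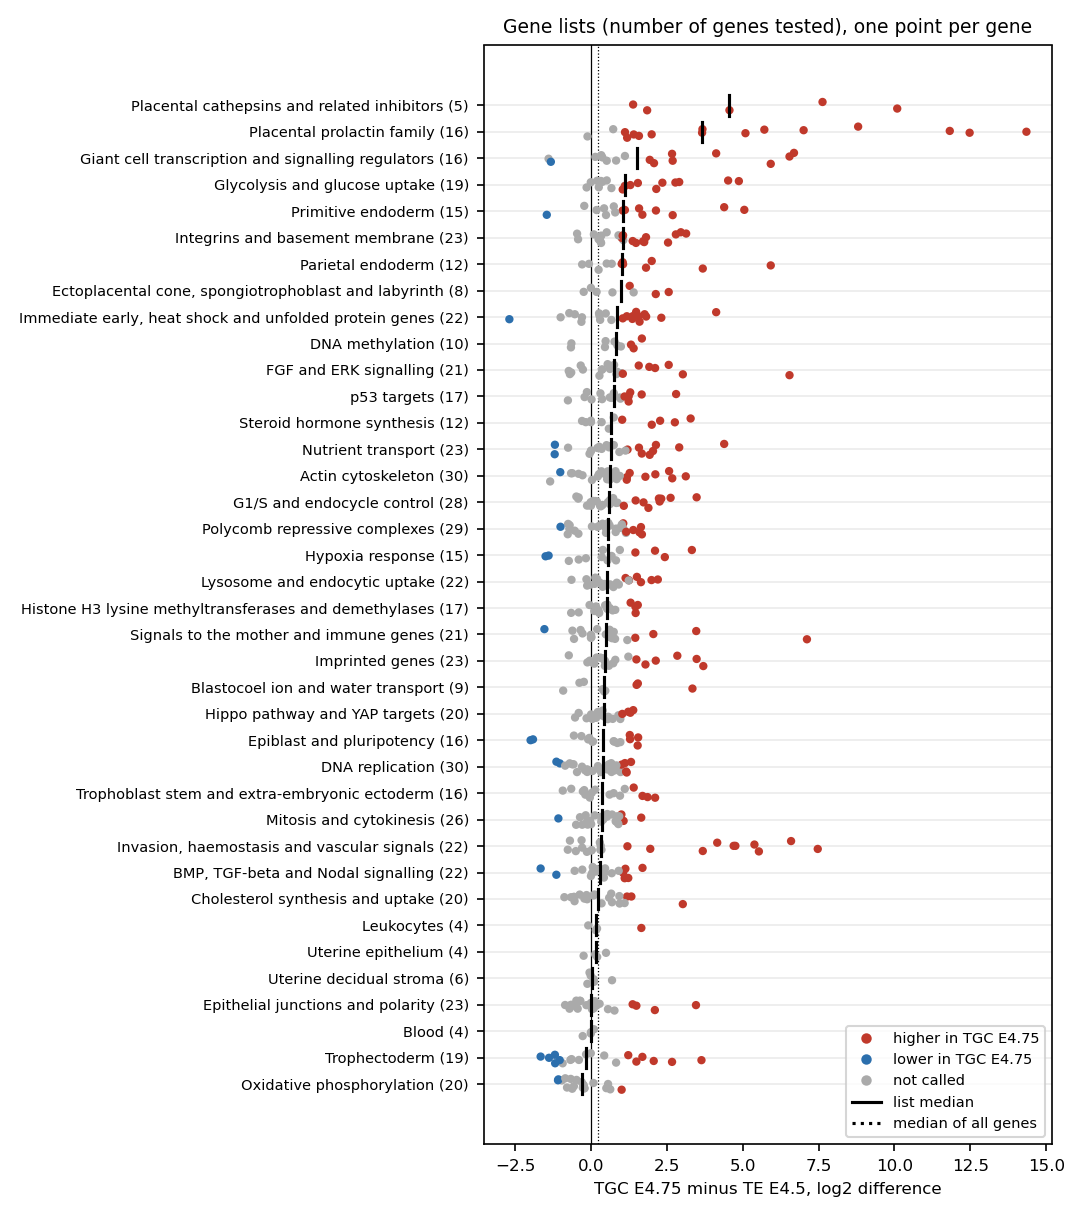
Difference between TGC E4.75 and TE E4.5 (log2) for each gene tested in 38 lists, 1 point per gene, with the number tested in parentheses, a bar at the list median and a dotted line at the median of all genes (0.218). Genes of at least 1 TPM in all 6 libraries had a median of 0.359. Placental cathepsins and prolactins lie furthest right, and the medians of trophectoderm (-0.16) and oxidative phosphorylation (-0.29) lie left of 0.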

How the data were processed

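RNA was measured by Smart-seq2 in small pools of cells, per the labels. The authors' deposited table holds TPM, with 25006 genes as rows and 67 libraries as columns, in 23 groups. The submitters' processing notes list the mm10 build, HISAT2 (2.2.1), StringTie (2.2.1) and Cufflinks. What each tool did, which annotation was used and whether strand counted is not given in the sources used here, so near-identical genes may share reads.

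Columns were matched to samples by title. The filter kept the 15567 genes that reached 1 TPM in 3 or more libraries. Their log2(TPM + 1) values were fitted by group means over all 67 libraries with limma 3.58.1 (R 4.3.3), using empirical Bayes moderation that follows the intensity. The added 1 TPM shrinks the differences of low genes. All adjusted p-values are Benjamini-Hochberg values over the genes kept. A call needs such a p below 0.05 together with a difference of at least 1 on the log2 scale. The 3 libraries of each group are biological replicates, per the labels.

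Gene lists came from general knowledge. The members and lists were chosen with earlier results of these data known. Named genes were Prl3d1, Hand1, as many as 3 of the called genes in each list and direction, and the 2 most abundant uncalled genes of each list. Also named were the 15 called genes per direction with the largest difference and no overlap of libraries (predicted genes and sex-chromosome markers left out). Part of the fixed cell type markers were named too, and the prolactin and cathepsin families whole. Psg19, Psg25 and the globins were added after their values were seen. Transcript length, GC content and coordinates came from GENCODE vM21 (GRCm38), matched by symbol for 15171 genes (97.5%), and promoter windows from RefSeq (GRCm38.p6). Alternatives changed the pseudocount, filter, scaling, fit, weights and libraries.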

Additional observations from a re-analysis of the deposited data

How the results depend on the processing

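In the table as deposited, 1999 genes were higher and 302 lower in TGC than in TE. The counts moved by over 1.5 times after quantile normalization (989 higher, 882 lower), median-ratio scaling (1283 and 849) and removal of the length and GC trend (819 and 815, of 15171 genes). They shared 1253, 1563 and 1078 of the 2301 calls. Without a minimum difference 2676 were higher and 788 lower. The cause was not tested for the scalings. Counts stayed within 1.5 times with 0.1 TPM added (1938 and 234), without the filter (1841 and 270 of 23734 genes), with Rn45s dropped (1984 and 290), with array weights (2597 and 381) and with the 6 libraries alone (2535 and 359). Leaving out each library in turn gave 1642 to 1781 higher and 249 to 260 lower genes. Deviations of same-numbered TGC and TE libraries from their group means correlated at -0.0299, -0.00835 and 0.00201. With 3 libraries per group such values cannot show whether same-numbered libraries share a source. The 6 libraries with a replicate block gave 2398 higher and 337 lower. None of the 2301 genes called in the table as deposited was called in the opposite direction by any of these settings. No named call against TE changed direction. Among the 209 named genes, 32 calls were lost under quantile normalization and 16 under median-ratio scaling. After trend removal 30 were lost (203 genes), with 0.1 TPM added 19, and without 1 library 10 to 13. The 209 include uncalled genes, which cannot lose a call, so the lost share of the named calls is larger than these counts over 209. TPM keeps no depth, so no counting error can be given for low values.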
